A study of Mus musculus with 3 samples.

Results

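The 10 genes described here encode chemokines, interleukin-1 family cytokines, leukocyte adhesion molecules, a Toll-like receptor and feedback inhibitors of NF-kappaB. They were taken by name from the 49492 gene entries of liver RNA-seq tables: Cxcl1, Cxcl9, Cxcl12, Il1rn, Il18, Vcam1, Icam1, Tlr4, Nfkbia and Tnfaip3. Livers came from CD-1 mice, an outbred strain, dosed orally each day with zinc oxide nanoparticles (ZnO NPs, suspended by ultrasound) at 25 mg/kg body weight for 8 or for 12 weeks, while control mice had phosphate-buffered saline in equal volume. Each of the 3 groups is 1 library, so differences carry no replicate check and p-values are not given. Sex, age, the number of animals behind a library and the time of the control liver are not given in the sources used here. The title of the study concerns insulin resistance caused by the particles.

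NF-kappaB is a family of transcription factors held in the cytoplasm by inhibitor proteins such as IkappaB-alpha, the product of Nfkbia. Ligands of Toll-like, interleukin-1 and tumour necrosis factor receptors activate a kinase complex that leads to the loss of the inhibitor, and NF-kappaB then enters the nucleus and drives chemokine, cytokine and adhesion genes. Among its targets are Nfkbia itself and Tnfaip3, which encodes the ubiquitin-editing enzyme A20, so that the pathway limits its own activity. In liver these genes are used by hepatocytes, by Kupffer cells (the resident macrophages) and by sinusoidal endothelial cells.

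The libraries held 13614979 counts (control), 14258770 (8 weeks) and 13263211 (12 weeks), at which 3 counts correspond to 0.221, 0.209 and 0.227 CPM, counts scaled to the size of the library. Of 12 hepatocyte markers, all were above 0 in each library, with a summed level of 64619, 73231 and 73770 CPM in the order control, 8 weeks and 12 weeks. The 8-week library stood apart by skeletal muscle RNA: 10 muscle markers summed to 1.92, 180 and 1.21 CPM. With the scaling set without the muscle markers and the most abundant genes, the same number of the 10 genes was called at 8 weeks (4) and their median was the same (0.66). Any other part of that RNA in the results at 8 weeks was not tested. The ratios of 12 weeks to the control use that library only in the scaling and in the filter that sets which genes are tested. Across 14585 genes with at least 1 CPM in 1 library, calls were made at 2-fold on the scale log2(CPM + 1), which is a limit on size without a test and which understates the change of low genes. All 10 genes passed that filter. Called higher in all were 4.15% of genes tested at 8 weeks, 3.11% at 12 weeks and 1.28% for 12 weeks against 8 weeks, and called lower were 2.10%, 1.34% and 1.23%, which makes 6.25%, 4.46% and 2.51% in either direction. Fold values below are ratios of scaled counts without the added CPM, with exact 95% intervals that cover counting error only.

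Promoter sequence was examined because NF-kappaB acts on several of these genes. The RefSeq promoter table (GRCm38.p6) held 8 of the 10 genes in 11 windows, some genes having more than 1 start site; Vcam1 and Tlr4 had no entry. The NF-kappaB consensus, searched on both strands of the 250 bases before the start, was found in 3 of these genes (Cxcl1, Nfkbia and Tnfaip3) and in 3.9% of all 32851 windows. These 3 are shown because they hold the consensus while their levels followed different courses, and Icam1 is shown for a match to the STAT site TTCNNNGAA, held by 7.02% of windows. Sequences run 5' to 3' on the strand of the gene, positions count back from the RefSeq start, bases listed as exons of the gene in the deposited tables are left out, and capitals mark the NF-kappaB match (the STAT match in Icam1).
Cxcl1, chr5:90890995-90891240, plus strand: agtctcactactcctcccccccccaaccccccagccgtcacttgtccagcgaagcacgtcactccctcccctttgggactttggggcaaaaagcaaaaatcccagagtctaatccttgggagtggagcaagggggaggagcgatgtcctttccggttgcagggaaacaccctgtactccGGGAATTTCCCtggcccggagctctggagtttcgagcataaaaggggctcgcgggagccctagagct
Nfkbia, chr12:55492648-55492897, minus strand: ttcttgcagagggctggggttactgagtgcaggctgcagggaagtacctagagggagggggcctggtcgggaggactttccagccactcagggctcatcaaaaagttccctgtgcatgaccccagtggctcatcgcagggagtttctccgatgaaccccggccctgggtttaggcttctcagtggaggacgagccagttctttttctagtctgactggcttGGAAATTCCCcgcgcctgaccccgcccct
Tnfaip3, chr10:19015411-19015547, minus strand: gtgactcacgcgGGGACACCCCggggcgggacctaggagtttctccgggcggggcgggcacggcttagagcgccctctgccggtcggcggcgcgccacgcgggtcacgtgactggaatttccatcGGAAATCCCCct
Icam1, chr9:21015690-21015939, plus strand: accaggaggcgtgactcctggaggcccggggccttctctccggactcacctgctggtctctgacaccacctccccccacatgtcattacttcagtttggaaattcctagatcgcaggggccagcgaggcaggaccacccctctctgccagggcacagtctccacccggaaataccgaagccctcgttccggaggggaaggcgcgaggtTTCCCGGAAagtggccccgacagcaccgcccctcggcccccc
The capitals before Cxcl1 hold 2 overlapping matches, one on each strand, between 71 and 61 bases before the start. The match before Nfkbia lies on the opposite strand 29 to 20 bases before the start, and the one on the opposite strand before Tnfaip3 lies 12 to 3 bases before it, with another on the strand of the gene at 125 to 116. The STAT match before Icam1 lies 42 to 34 bases before the start. The Tnfaip3 stretch lies inside the gene as the deposited tables draw it, between exons of a longer transcript. A match of letters is a description and does not show that a factor was bound. The AP-1 site TGANTCA (both strands, 6.75% of windows) was found before Il1rn and Tnfaip3.

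All 10 genes are protein-coding in GENCODE M21 (mm10). Cxcl1 (90891241 to 90893115, plus strand) and Cxcl9 (92321347 to 92328079, minus strand) lie on chromosome 5, Icam1 (21015985 to 21028817, plus) and Il18 (50554827 to 50581840, plus) on chromosome 9. Cxcl12 lies on chromosome 6 (117168535 to 117181367, plus), Il1rn on 2 (24336853 to 24351494, plus), Vcam1 on 3 (116109949 to 116129688, minus) and Tlr4 on 4 (66827584 to 66930284, plus). Nfkbia lies on chromosome 12 (55489411 to 55492647, minus) and Tnfaip3 on 10 (19000910 to 19015657, minus).

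Per length, the genes spanned a wide range in the control, from Cxcl12 at 40.6 CPM per kilobase and Nfkbia at 27.7 down to Il1rn at 0.266 and Tlr4 at 0.199. Between them lay Cxcl1 (9.43), Il18 (2.86), Icam1 (2.05), Cxcl9 (0.635), Vcam1 (0.607) and Tnfaip3 (0.551). Il18 and Icam1 did not differ beyond their counting intervals in the control, nor did Cxcl9, Vcam1 and Tnfaip3, nor Il1rn and Tlr4. At 12 weeks Cxcl1 led the 10 genes at 215 CPM per kilobase, followed by Cxcl12 at 35.9 and Nfkbia at 29.4. Tlr4 was the lowest there at 0.462, with an interval that overlapped that of Tnfaip3 (0.669).

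**Figure D1:**
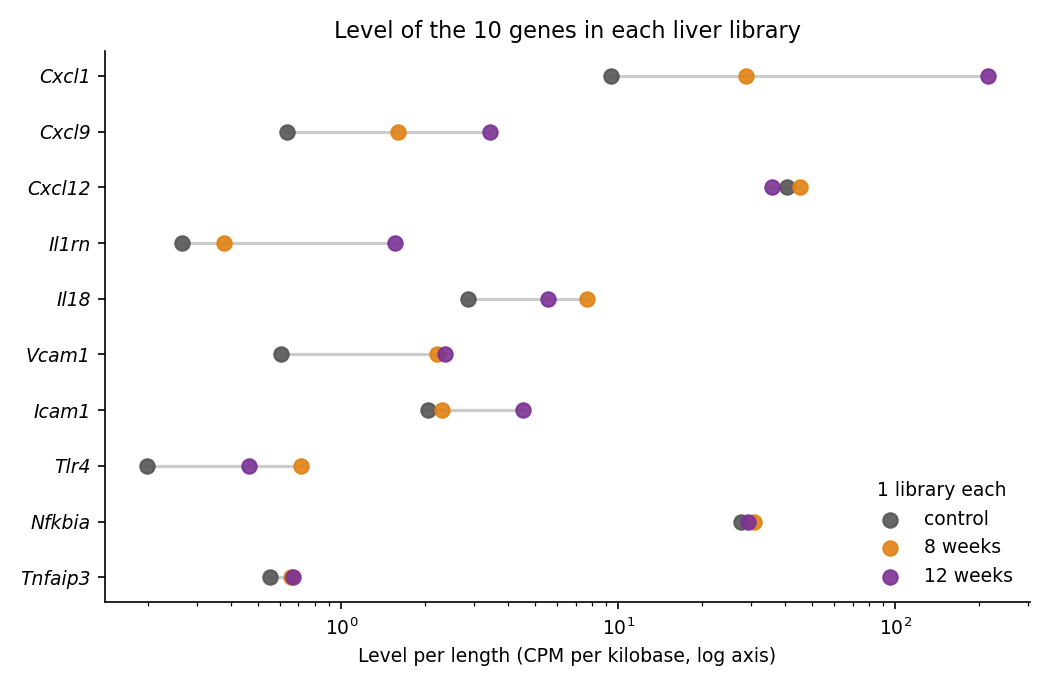
Level of each gene per kilobase of its length (CPM per kilobase, log axis) in the control, 8-week and 12-week libraries, 1 point per library and a grey line over their range. Cxcl1 moved from 9.43 to 215 between the control and 12 weeks, while Cxcl12, Nfkbia and Tnfaip3 stayed within a narrow range.

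At 8 weeks 4 of the 10 genes were called higher (Cxcl1, Il18, Vcam1 and Tlr4; 4.15% of all genes tested were) and 0 lower, with a median log2 ratio of 0.66 against -0.02 over all genes tested. At 12 weeks 5 were called higher (Cxcl1, Cxcl9, Il1rn, Vcam1 and Icam1; 3.11% of all genes tested were) and 0 lower, with a median of 0.92 against -0.01. Both comparisons use the same control library. The 10 genes were chosen with earlier results of these data known, so the counts beside the share of all genes are a description only. Between 12 and 8 weeks 2 were called higher (Cxcl1 and Il1rn; 1.28% of all genes tested were) and 0 lower, with a median of 0.06. Cxcl1 and Vcam1 were thus called at both times, Il18 and Tlr4 at 8 weeks and Cxcl9, Il1rn and Icam1 at 12 weeks. Whether a gene called at one time and not at the other truly differs between the times cannot be tested with 1 library a group, and the direct ratio of 12 to 8 weeks is given for each below.

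**Figure D2:**
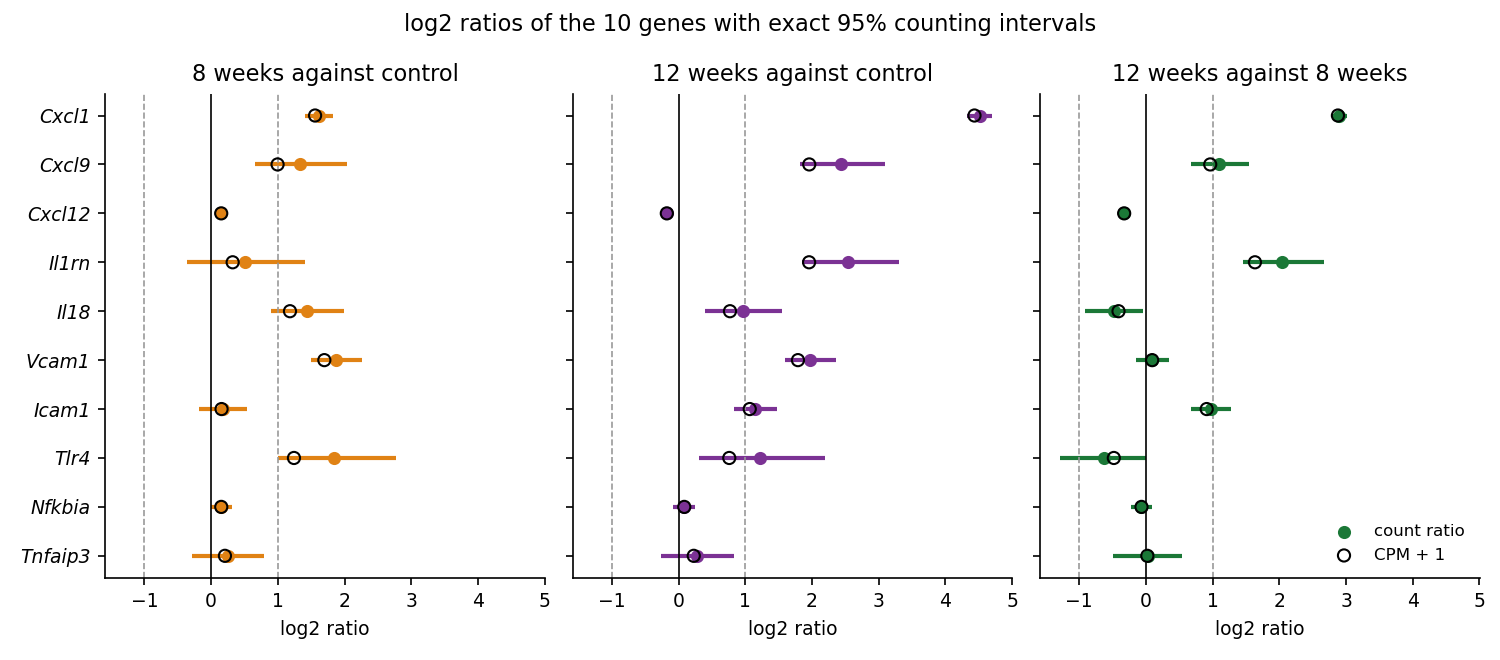
log2 ratios of the 10 genes in the 3 comparisons: filled points are ratios of scaled counts with their exact 95% counting intervals (lines), open circles are log2 ratios of CPM + 1, and dashed lines mark 2-fold. Cxcl1 stands at 4.44 at 12 weeks on the CPM + 1 scale, and Nfkbia lies at 0.15 and 0.09.

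Cxcl1 encodes a chemokine that attracts neutrophils through the receptor CXCR2. Its level was 17.7 CPM in control liver, 54.0 at 8 and 404 at 12 weeks, from 240, 774 and 5346 counts. It was thus lowest in the control and highest at 12 weeks, by 3.05-fold at 8 weeks (interval 2.64 to 3.54; log2 ratio of CPM + 1, 1.56) and 22.8-fold at 12 weeks (20.0 to 26.1; 4.44). From 8 to 12 weeks it was 7.47-fold higher (6.93 to 8.07). Only 18 of the genes tested had a larger log2 ratio at 12 weeks.

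No other entry of the tables overlaps Cxcl1. Other ligands of CXCR2 were low: Cxcl2 had 3, 2 and 11 counts, Cxcl5 had 1, 2 and 0, Cxcl3 had 0 in each library and Ppbp had 16, 4 and 7, values named after they were seen. Of these, Ppbp alone passed the filter, and its log2 ratios were -0.77 and -0.51, not called. The receptor gene Cxcr2 had 3, 3 and 6 counts. Markers of neutrophils and monocytes were sparse as well: 4 of 13 passed the filter, 0 of them were called at either time, and the summed level of the 13 was 3.98, 5.72 and 8.91 CPM, with 5, 3 and 2 of them at 0. That sum was 1.44-fold higher at 8 weeks (1.01 to 2.07) and 2.24-fold at 12 weeks (1.61 to 3.15), and 1.56-fold from 8 to 12 weeks (1.16 to 2.09). The granule gene Mpo had 0, 0 and 1 counts and S100a8 had 0, 0 and 2, while Ly6g had 3, 2 and 14 and S100a9 had 2, 2 and 14. The part of these cells in the Cxcl1 level was not tested.

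Cxcl12, the chemokine that holds leukocytes and progenitor cells in tissue through CXCR4, was the most abundant chemokine in the control. Its level was 332 CPM in control liver, 368 at 8 and 293 at 12 weeks, from 4499, 5276 and 3887 counts. The values lay close together, highest at 8 and lowest at 12 weeks. The fold was 1.11 at 8 weeks (1.07 to 1.16) and 0.885 at 12 weeks (0.848 to 0.924), so neither reached 2-fold, and 12 against 8 weeks gave 0.797 (0.765 to 0.831). With Cxcl1 and Cxcl12 the make-up of the chemokine pool differed between libraries. Of the CPM per kilobase summed over 36 chemokine ligand genes, Cxcl12 made up 60.7%, 45.6% and 12.7% in the order control, 8 weeks and 12 weeks, while Cxcl1 made up 14.1%, 29.2% and 76.2%. The 33 ligands other than these and Cxcl9 summed to 16.2, 23.4 and 27.9 CPM per kilobase.

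**Figure D3:**
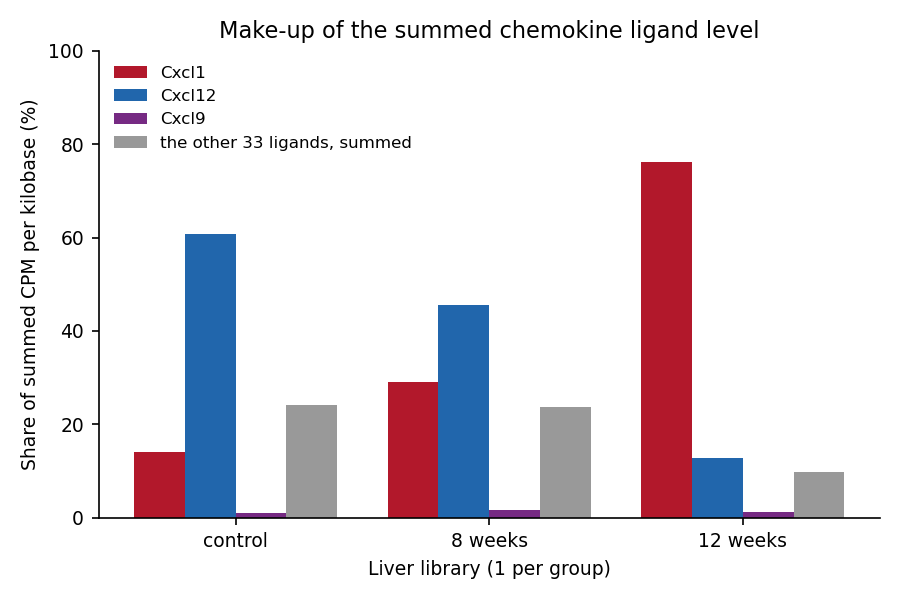
Share (%) of the CPM per kilobase summed over 36 chemokine ligand genes, for Cxcl1, Cxcl12, Cxcl9 and the remaining 33 ligands together, in the control, 8-week and 12-week libraries (1 each, so no error bars). Cxcl12 holds 60.7% in the control and Cxcl1 holds 76.2% at 12 weeks.

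Cxcl9, an interferon-gamma-inducible chemokine that attracts T cells through CXCR3, had a control level of 1.92 CPM, against 4.82 at 8 and 10.3 at 12 weeks (26, 69 and 137 counts). The level was lowest in the control and highest at 12 weeks. It was 2.51-fold higher at 8 weeks (1.58 to 4.11) and 5.40-fold at 12 weeks (3.53 to 8.56), with 2.15-fold between 12 and 8 weeks (1.60 to 2.91). At 8 weeks its log2 ratio of CPM + 1 was 0.996, just under the call, and it was called under 3 other scalings, with a pseudocount of 0.5 CPM and at a 1.5-fold threshold. Interferon-gamma itself (Ifng) had 0 counts in each library, which allows up to 0.221 CPM in the control. Of the 20 tested genes of the interferon-gamma pathway other than Cxcl9, 5 were called higher at 8 weeks and 7 at 12 weeks. Of all genes tested, 4.15% and 3.11% were. Among the 20, 0 were called lower, with medians of 0.50 and 0.63. Among them, Gbp7, an interferon-induced GTPase, had 7.52, 27.1 and 23.3 CPM, and the immunoproteasome subunit Psmb8 had 10.5, 28.1 and 22.5 CPM. Of the same GTPase family, Gbp3 had 1.92, 6.70 and 6.95 CPM (log2 ratios of 1.40 and 1.45). Gbp2 had 3.17, 6.42 and 10.7 CPM (0.83 and 1.49) and Gbp5 had 1.62, 2.16 and 5.29 CPM (0.27 and 1.26), both lowest in the control and highest at 12 weeks like Cxcl9. Also called higher were Cxcl10 at both times (1.16 and 1.33), Psmb9 at 8 weeks (1.05) and Irf8 at 12 weeks (1.14). Cxcl10 was under 1 CPM in the control and passed the filter only through the treated libraries. The remaining tested genes of the list were not called at either time. Among these were the chemokine Cxcl11, with 3.39, 2.65 and 2.94 CPM (-0.27 and -0.15), and Irgm1, with 26.4, 26.1 and 25.4 CPM (-0.01 and -0.05). Iigp1, the most abundant of the list by CPM, had 403, 642 and 542 CPM (0.67 and 0.43) and was not called either. The T and NK cell markers summed to 4.35, 5.51 and 5.36 CPM over 13 genes, with 0 of the 3 that passed the filter called. Their part in the Cxcl9 level was not tested.

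Of the 13 other chemokine ligands that passed the filter, 3 were called higher at 8 weeks and 4 at 12 weeks. Shares over all genes tested were 4.15% and 3.11%. Among the 13, 0 were called lower, with medians of 0.22 and 0.46. Ccl6, made by macrophages and other myeloid cells, had 2.21, 6.98 and 11.3 CPM (log2 ratios of 1.31 and 1.93). Ccl9 (16.4, 19.0 and 17.8 CPM), Ccl25 (10.2, 6.42 and 8.23) and Cxcl16 (7.81, 8.31 and 9.21) were not called at either time. Apart from Ccl6, the ligands called were sparse and are named after their values were seen. All of these were under 1 CPM in the control, so they passed the filter only through a treated library. Cxcl10 had 4, 27 and 30 counts and was called at both times, Cxcl13 had 3, 23 and 9 and was called at 8 weeks. At 12 weeks the monocyte chemokines Ccl2 (2, 5 and 18 counts) and Ccl7 (0, 3 and 14 counts) were called. Of 23 chemokine receptor genes, 8 passed the filter and 0 were called at either time; the scavenging receptor Ackr4 was the most abundant by CPM, at 104, 71.7 and 78.6.

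Il1rn encodes the interleukin-1 receptor antagonist, a secreted decoy ligand that occupies the receptor without signalling. It had a control level of 1.47 CPM, against 2.09 at 8 and 8.61 at 12 weeks, from 20, 30 and 114 counts. The control and 8-week levels were alike within counting error, and the 12-week level stood above both. The fold was 1.42 at 8 weeks (0.781 to 2.64), 5.84 at 12 weeks (3.61 to 9.92) and 4.11 between 12 and 8 weeks (2.73 to 6.37), the last not called with a pseudocount of 5 CPM (log2 ratio 0.94). The agonist Il1b had 27, 41 and 63 counts, so that Il1rn counts per Il1b count were 0.741 (0.394 to 1.37), 0.732 (0.441 to 1.20) and 1.81 (1.32 to 2.50). Since lengths differ between the genes, this ratio serves only to compare libraries. Il1a had 70, 72 and 56 counts. The receptor gene Il1r1 was called higher at 12 weeks, with 130, 143 and 268 CPM (log2 ratios of 0.14 and 1.04).

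Il18 encodes a cytokine that is cleaved by caspase-1 and drives interferon-gamma production. It had a control level of 2.95 CPM, against 7.96 at 8 and 5.74 at 12 weeks (40, 114 and 76 counts). It was highest at 8 weeks, and both treated libraries lay above the control. The fold was 2.70 at 8 weeks (1.87 to 3.97) and 1.95 at 12 weeks (1.31 to 2.93), and 12 against 8 weeks gave 0.721 (0.532 to 0.973). The call at 8 weeks was lost with a pseudocount of 5 CPM (log2 ratio 0.71). Casp1 had 21, 21 and 19 counts, and Il18bp, the secreted binding protein that neutralizes the cytokine, had 45, 85 and 77, neither called. Of 12 tested genes of the interleukin-1 family and its receptors other than Il1rn and Il18, 0 were called at 8 weeks and 1 at 12 weeks (Il1r1). Shares over all genes tested were 6.25% and 4.46% in either direction. The medians of the 12 were 0.22 and 0.43.

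Vcam1 and Icam1 encode cell surface proteins that bind leukocyte integrins. Vcam1 had a control level of 5.38 CPM, against 19.7 at 8 and 21.1 at 12 weeks (73, 282 and 279 counts). The treated libraries were alike and both stood above the control, by 3.66-fold (2.82 to 4.80) and 3.92-fold (3.02 to 5.14), with log2 ratios of CPM + 1 of 1.70 and 1.79. The ratio of 12 to 8 weeks was 1.07 (0.904 to 1.27). An opposite-strand entry, Gm43109, shares 61 exon bases with Vcam1 and had 1, 10 and 7 counts, far fewer than the gene.

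Icam1 followed another course, with 8.92 CPM in control liver, 10.1 at 8 and 19.8 at 12 weeks (121, 144 and 262 counts). The control and 8-week levels were alike within counting error and the 12-week level was higher than both. The fold was 1.13 at 8 weeks (0.879 to 1.45), 2.22 at 12 weeks (1.78 to 2.77) and 1.97 between 12 and 8 weeks (1.60 to 2.43). The call at 12 weeks was lost with a pseudocount of 5 CPM (log2 ratio 0.83). Another opposite-strand entry, a clone-named gene model, shares 511 exon bases with Icam1 and had 19, 10 and 33 counts. The use of strand in counting is not given in the sources used here. Reads in the shared stretch may belong to either entry.

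Of the 19 tested adhesion genes other than these 2, 3 were called higher at 8 weeks and 5 at 12 weeks. Shares over all genes tested were 4.15% and 3.11%. Among the 19, 0 were called lower, with medians of 0.43 and 0.56. Selplg and Itgam, among those called, were under 1 CPM in the control and passed the filter only through a treated library. Itgb2, the common beta chain of the leukocyte integrins that bind ICAM-1, had 2.06, 8.24 and 6.87 CPM (log2 ratios of 1.59 and 1.36), and its partner Itgal had 2.36, 7.05 and 4.91 CPM (1.26 and 0.81). Itga4, a chain of the integrin that binds VCAM-1, had 106, 66.6 and 157 CPM (-0.66 and 0.56) and was called higher at 12 against 8 weeks (1.22). The junctional protein Jam2 had 11.1, 12.6 and 24.9 CPM (0.18 and 1.10) and the hyaluronan receptor Cd44 had 2.14, 5.09 and 6.80 (0.96 and 1.31). The endothelial selectin Sele had 0, 1 and 1 counts.

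Tlr4 encodes the receptor for bacterial lipopolysaccharide, which it binds together with the products of Ly96 and Cd14. It was the lowest of the 10 genes per length in the control, with 1.11 CPM there, 3.98 at 8 and 2.57 at 12 weeks (15, 57 and 34 counts). Both treated libraries stood above the control, and the 8-week level was the highest, though 12 and 8 weeks did not differ beyond counting error. The fold was 3.60 at 8 weeks (2.01 to 6.84) and 2.32 at 12 weeks (1.23 to 4.59). At 12 weeks the log2 ratio of CPM + 1 was 0.76, so it was not called although the ratio of counts exceeded 2, because the added CPM weighs on a gene this low. With a pseudocount of 5 CPM the 8-week call was lost as well (0.56). The ratio of 12 to 8 weeks was 0.645 (0.409 to 1.004).

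Of the 23 other tested genes of Toll-like receptors and their adapters, 6 were called higher at 8 weeks and 0 lower. At 12 weeks 5 were higher and 1 lower, and the medians were 0.26 and 0.22. Shares over all genes tested were 4.15% and 3.11% higher, and 2.10% and 1.34% lower. All 6 at 8 weeks were under 1 CPM in the control, so they passed the filter only through a treated library. They are named after their values were seen: Tlr2 (4, 26 and 24 counts), Tlr7 (6, 41 and 24), Tlr8 (0, 16 and 15), Tlr13 (7, 47 and 41), the co-receptor Cd14 (11, 45 and 64) and Ly86 (2, 36 and 10). Tlr2, Tlr8, Tlr13 and Cd14 were called at 12 weeks as well. The adapter Tirap, which links TLR4 to MyD88, was called at 12 weeks with 17.5, 24.8 and 38.7 CPM (0.48 and 1.10). The lower gene at 12 weeks was Tlr12 (40, 33 and 12 counts). Ly96 had 5.75, 6.14 and 7.17 CPM and Lbp, the plasma carrier of lipopolysaccharide made by hepatocytes, had 122, 109 and 137 CPM, neither called.

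Markers of Kupffer cells and other macrophages were higher in both treated libraries than in the control, as were Tlr4, Il18, Vcam1, Cxcl1 and Cxcl9. Of 16 markers, 15 were called higher at 8 weeks and 14 at 12 weeks, beside 4.15% and 3.11% of all genes tested. Fcgr1, called at both times, was under 1 CPM in the control and passed the filter only through the treated libraries. No marker was at 0 in any library. Their summed level was 107, 438 and 336 CPM, a fold of 4.09 at 8 weeks (3.86 to 4.33) and 3.13 at 12 weeks (2.95 to 3.33). In bulk tissue, more cells of a type and more RNA per cell cannot be told apart. Per 100 counts of these markers, Tlr4 had 1.03 counts in control liver (0.575 to 1.70), 0.907 at 8 (0.686 to 1.18) and 0.764 at 12 weeks (0.528 to 1.07), with overlapping intervals. Vcam1 had 5.01 (3.91 to 6.34), 4.49 (3.97 to 5.06) and 6.27 (5.53 to 7.07), where the 8-week and 12-week intervals did not overlap. Il18 had 2.75 (1.95 to 3.76), 1.81 (1.49 to 2.18) and 1.71 (1.34 to 2.14), with overlapping intervals. Il1rn had 1.37 (0.836 to 2.13), 0.478 (0.322 to 0.682) and 2.56 (2.11 to 3.08), lowest at 8 weeks. Its control and 12-week intervals overlapped. Cxcl9 had 1.79 (1.16 to 2.63), 1.10 (0.854 to 1.39) and 3.08 (2.58 to 3.65), where the control interval overlapped those of both treated libraries. Icam1 had 8.31, 2.29 and 5.89, with no overlap of its 3 intervals. Tnfaip3 had 3.71 (2.77 to 4.87), 1.08 (0.840 to 1.37) and 1.44 (1.11 to 1.84), lower in both treated libraries than in the control. The marker counts themselves were higher in both treated libraries, so a gene with an unchanged level falls on this measure. Tnfaip3 itself had 54, 68 and 64 counts, and Il1rn had 20, 30 and 114. The part of macrophages in these levels was not tested. Markers of sinusoidal endothelial cells, which also bear VCAM-1 and ICAM-1, summed to 347, 462 and 399 CPM, with 1 of 12 called higher at each time against the control.

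Nfkbia and Tnfaip3 are the 2 feedback genes. Nfkbia had a control level of 43.6 CPM, against 48.6 at 8 and 46.4 at 12 weeks (592, 696 and 614 counts). The 3 libraries were alike within counting error, with folds of 1.11 (0.996 to 1.24) and 1.06 (0.948 to 1.19) against the control and 0.954 (0.855 to 1.07) between 12 and 8 weeks. Tnfaip3 had 3.98, 4.75 and 4.83 CPM (54, 68 and 64 counts), again alike within counting error, with folds of 1.19 (0.822 to 1.74) and 1.21 (0.832 to 1.78), and 1.02 (0.712 to 1.45) between 12 and 8 weeks. For both genes the upper bound lay under 2-fold at both times, while Cxcl1, which also holds the NF-kappaB consensus in the sequence shown, was 22.8-fold higher at 12 weeks. Of 558 tested genes with that consensus before a start, 32 were called higher at 8 weeks (5.73%, beside 4.15% of all genes tested) and 29 at 12 weeks (5.20%, beside 3.11%), while 12 and 6 were called lower, with medians of 0.02 at both times. For the other sites searched, the shares called higher at 8 and 12 weeks were 4.73% and 5.0% of 740 genes with the STAT site. They were 5.48% and 3.53% of 566 genes with the AP-1 site. Whether the shares differ between the sites was not tested.

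The wider list of NF-kappaB feedback inhibitors also held inhibitors of other signalling, such as Socs3 and Dusp1. Of its 17 tested genes other than Nfkbia and Tnfaip3, 0 were called at 8 weeks and 2 higher at 12 weeks. Shares called higher over all genes tested were 4.15% and 3.11%. Among the 17, 0 were called lower at either time, with medians of 0.10 and 0.35. Socs3, which blocks cytokine receptor signalling through STAT3, had 8.62, 5.65 and 18.3 CPM (log2 ratios of -0.53 and 1.00) and was called higher at 12 against 8 weeks (1.53). The other was Irak3, a kinase-like inhibitor of Toll-like receptor signalling, named after its values were seen, with 15, 21 and 44 counts (0.23 and 1.04). The nuclear IkappaB protein Bcl3 had 37.2, 31.3 and 58.7 CPM (-0.24 and 0.64). Neither the 16 NF-kappaB subunits and kinases nor the 13 tested genes of TNF receptor signalling had a call at either time. Their medians were -0.17 and -0.06 at 8 weeks and 0.12 and 0.38 at 12 weeks.

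**Figure D4:**
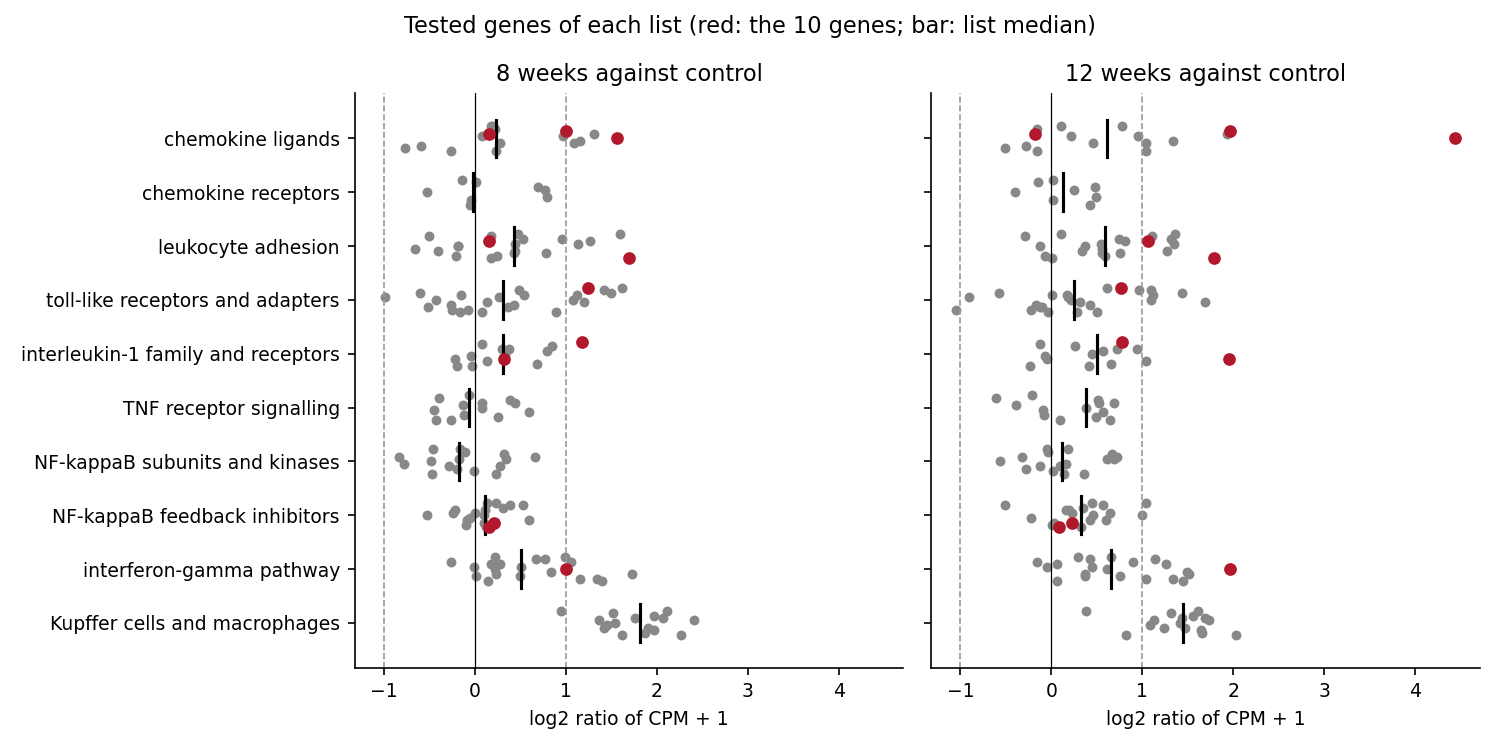
log2 ratios of CPM + 1 at 8 weeks (left) and 12 weeks (right) against the control for the tested genes of 9 pathway lists and of the macrophage marker list; red points are the 10 genes, black bars list medians and dashed lines 2-fold. The macrophage markers have medians of 1.81 and 1.45, the feedback inhibitors 0.11 and 0.32.

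The genes whose pair of log2 ratios (8 and 12 weeks against the control) lay nearest to that of each of the 10 were listed among 9578 or 9579 named genes with at least 5 CPM in 1 library. The measure is a distance over 3 libraries that share the control, so it describes these libraries only. Nearest to Cxcl1 were the metallothionein Mt2 (distance 0.41; log2 ratios of 1.89 and 4.68), Nnmt (0.65) and Mt1 (0.87), and no gene lay within 0.25. Mt2 had 14.5, 56.5 and 398 CPM. Nearest to Icam1 were the interleukin-1 receptor gene Il1r1 (distance 0.03) and Jam2 (0.04), among 23 genes within 0.25. Nearest to Vcam1 was Il13ra1 (0.17), among 8. No gene lay within 0.25 of Il1rn, where Adgrv1 was nearest (0.41). Nfkbia had 2413 genes within that distance and Tnfaip3 had 1803, so their patterns were shared by a large part of the genes listed.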

How the data were processed

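RNA-seq of liver was used from 3 libraries (control, 8 and 12 weeks), grouped by the labels' treatment. The authors deposited estimated counts for each gene without normalization, as the values show. Of values above 0, 70.4%, 70.2% and 71.5% were whole within 0.005. Cufflinks 2.2.1.0 and TopHat2 2.1.0 are named in the submitters' processing notes, with both mm10 and mm9; the counting program is not given in the sources used here. Coordinates matched GENCODE M21 (mm10) for 9 of the 10 genes, and Nfkbia differs by 1 base at one end.

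Counts were rounded and scaled by TMM in edgeR 4.0.16 (R 4.3.3; factors 0.997, 1.005 and 0.999). Ratios of CPM + 1 were called at 2-fold. Intervals are exact (Clopper-Pearson; for single levels, Poisson) at 95%; amplified reads are not independent molecules. Promoter sequences are from RefSeq (GRCm38.p6). Calls and intervals were tried on simulated data with counting error only, which hold no difference between animals. Alternatives included DESeq2 1.42.0 size factors.

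The members, gene lists and the rule for named genes were chosen with earlier results of these data known. That rule took, per list, up to 4 called genes a comparison at 5 CPM or more in 1 library, by size of ratio, or else the 2 most abundant, and the 3 genes nearest in pattern to each of the 10. Not every gene it takes is printed. Other genes were picked with their values known. The markers of B cells, stellate cells and cholangiocytes summed to 7.37, 4.82 and 3.47 CPM, 261, 305 and 318 CPM, and 32.5, 25.0 and 35.1 CPM in the order control, 8 weeks and 12 weeks.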

Additional observations from a re-analysis of the deposited data

Results flagged for a closer look

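Cxcl12 had log2 ratios of opposite sign at the 2 times, 0.15 at 8 weeks (interval 0.09 to 0.21) and -0.18 at 12 weeks (-0.24 to -0.11), with both counting intervals on their own side of 0. Both ratios use the same control library, each time is 1 library, and the difference was not tested.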

How the results depend on the processing

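The 11 alternatives changed scaling, pseudocount, filter, threshold, rounding or the genes that set the scaling. Of 270 alternative ratios of single genes, 261 kept their side of the 2-fold threshold, 4 lost a call, 5 gained one and 0 reversed. With a pseudocount of 5 CPM the genes called fell from 4 to 2 at 8 weeks (Il18 at 0.71 and Tlr4 at 0.56) and from 2 to 1 for 12 against 8 weeks (Il1rn at 0.94), and Icam1 stood at 0.83 at 12 weeks. At a 3-fold threshold 1 gene was called at 8 weeks, and at 1.5-fold 4 were called for 12 against 8 weeks, which follows from the threshold itself. Cxcl9 at 8 weeks lay between 1.00 and 1.01 under total count, DESeq2 and upper quartile scaling and at 1.14 with a pseudocount of 0.5 CPM, and so was called there; it was also called at 1.03 for 12 against 8 weeks with the latter. Genes with under 100 counts, such as Tlr4, Il1rn, Il18 and Tnfaip3 in the control, carry the widest intervals. No replicate could be left out. No paired analysis was possible because each group has 1 library.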

Other observations

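Within the lists around the 10 genes, some values had no place in the comparisons above; the genes were chosen after their values were seen. Tlr5, the receptor for bacterial flagellin, had 17.8, 8.51 and 9.06 CPM in the order control, 8 weeks and 12 weeks, with log2 ratios of -0.99 and -0.90, under the call at both times. The phosphatase gene Dusp1, a brake on MAP kinases, had 63.0, 82.6 and 44.1 CPM (0.39 and -0.51). Tab2, an adapter of the kinase TAK1 upstream of NF-kappaB, had 238, 132 and 189 CPM (-0.84 and -0.33). Cflar, which restrains caspase-8, had 171, 231 and 245 CPM (0.44 and 0.52).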
